A study of Mus musculus with 114 samples.

Results

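The genes described here carry the hypoxia and angiogenic signals of fat tissue: Vegfa, Vegfb, Vegfc, Hif1a, Epas1, Egln1, Egln3, Angpt1, Angpt2 and Angptl4. These 10 genes of the 29132 in the expression table were taken by name, from a list drawn up with earlier results of these data known. Expression was measured by RNA-seq in the adipocyte fraction of perigonadal white fat, the cells that float after collagenase digestion, in 38 male C57BL/6J mice. Feeding of a chow diet (CD) or of a high fat diet (HFD) began at an age of 6 weeks and lasted 8, 20 or 34 weeks, with 6 mice in each of the 6 groups except the 34-week CD group, which had 8. No group carried a transgene or a drug, and all mice were fasted before harvest. The control diet was given as 1 of 2 diets and the labels do not tell which mouse ate which. Each time point was a separate set of mice, so time on diet, age and day of harvest cannot be told apart. Sequencing depth was 9275711 to 15480388 assigned reads per mouse, and levels are given as CPM, a gene's reads scaled to a fixed library total, in which a single read is worth 0.0646 to 0.108. At 8 weeks every HFD mouse was sequenced more deeply (13201234 to 15480388 reads) than every CD mouse (10562845 to 12611013).

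When oxygen is plentiful, the prolyl hydroxylases encoded by Egln1 and Egln3 mark the HIF alpha subunits, HIF-1α (Hif1a) and HIF-2α (Epas1), for binding by the VHL protein and for degradation. When oxygen falls the alpha subunits persist, join their partner ARNT and switch on genes for glycolysis and for vessel growth, among them Vegfa. VEGF-A acts on blood endothelium through its receptors FLT1 and KDR, VEGF-B binds FLT1, and VEGF-C binds FLT4 and drives the growth of lymphatic vessels. Angiopoietin 1 activates the endothelial receptor TEK and steadies vessels, while angiopoietin 2 binds the same receptor and mostly opposes it. Angptl4 encodes a secreted inhibitor of lipoprotein lipase that fasting, fatty acids and hypoxia induce. Much of HIF-1α control lies at the level of the protein, which these data do not measure.

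The stretches just upstream of 4 members are shown because HIF binding at a short core, ACGTG or GCGTG, is the usual link between oxygen sensing and its targets. Egln1 and Egln3 encode the hydroxylases that sense oxygen, Hif1a encodes the regulated transcription factor subunit, and Vegfa is the best known target. They are RefSeq sequences of build GRCm38.p6, read 5′ to 3′ on the strand of the gene and ending at the base before the annotated start. The Egln1 stretch is the exception: it ends before the GENCODE start, which lies upstream of the RefSeq start from which positions are counted. Capitals mark ACGTG or GCGTG searched on both strands, so that CACGTG in Hif1a is a pair of overlapping matches, 1 on each strand. The Hif1a start used by RefSeq lies downstream of the first start in GENCODE.
Hif1a, chr12:73907617-73907866, plus strand: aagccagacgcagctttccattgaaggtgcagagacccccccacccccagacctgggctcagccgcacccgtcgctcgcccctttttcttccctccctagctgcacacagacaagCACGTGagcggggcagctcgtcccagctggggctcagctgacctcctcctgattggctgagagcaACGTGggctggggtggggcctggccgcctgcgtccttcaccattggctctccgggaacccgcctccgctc
Egln1, chr8:124949325-124949504, minus strand: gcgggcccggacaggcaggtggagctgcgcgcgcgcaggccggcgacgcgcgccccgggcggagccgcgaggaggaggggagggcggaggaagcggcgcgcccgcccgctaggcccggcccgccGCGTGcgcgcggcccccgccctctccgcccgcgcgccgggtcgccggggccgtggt
Egln3, chr12:54203875-54204124, minus strand: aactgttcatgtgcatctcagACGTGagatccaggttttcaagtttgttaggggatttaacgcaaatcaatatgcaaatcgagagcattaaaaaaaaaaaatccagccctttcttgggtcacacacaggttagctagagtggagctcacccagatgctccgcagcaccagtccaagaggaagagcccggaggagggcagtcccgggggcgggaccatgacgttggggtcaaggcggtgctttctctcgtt
Vegfa, chr17:46032378-46032627, minus strand: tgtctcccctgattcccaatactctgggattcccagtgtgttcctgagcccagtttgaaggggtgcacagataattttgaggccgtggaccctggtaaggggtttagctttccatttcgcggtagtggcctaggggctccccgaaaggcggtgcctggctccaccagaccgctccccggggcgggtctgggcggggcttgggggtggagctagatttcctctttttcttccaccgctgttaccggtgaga
Counted from the start, the match of Egln3 began at position -229, that of Egln1 at -126, and those of Hif1a at -135 and -134 (the overlapping pair) and at -70. The Vegfa stretch held neither core, while a second RefSeq start of Vegfa had 2 matches, and Egln1 had a further ACGTG at -68 outside the stretch printed. Vegfb had GCGTG at -81 and, on the opposite strand, at -237, and Vegfc had no match. Of 32851 promoter windows of 300 bases in the same table, 19.6% held ACGTG, 32.4% held GCGTG and 43.8% held either, so a match is common and is only a description of these letters. Epas1, Angpt1, Angpt2 and Angptl4 are named only.

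All 10 genes are protein-coding, and their reads were counted over the union of their exons on build GRCm38. Hif1a lies at chr12:73901375-73947530 on the plus strand and Epas1 at chr17:86753700-86833410 on the plus strand. Egln1 spans chr8:124908587-124949324 and Egln3 chr12:54178981-54203860, both on the minus strand. Of the VEGF genes, Vegfa (chr17:46016993-46032369) and Vegfb (chr19:6982473-6987651) lie on the minus strand and Vegfc (chr8:54077606-54187096) on the plus strand. Angpt1 (chr15:42424723-42676977), Angpt2 (chr8:18690263-18741562) and Angptl4 (chr17:33773750-33781830) are all on the minus strand. Exons of Hif1a overlap those of Gm49321, a protein-coding gene on the same strand that has no row in the values used here, over 148 bases, so reads of that stretch cannot be assigned to one of them with certainty. Exons of Hif1a also overlap the antisense gene Gm15283 over 191 bases and those of Angpt1 overlap the antisense gene Gm17473 over 653 bases, and these antisense neighbours reached at most 0.0926 and 0.322 CPM. Angpt2 sits inside Mcph1 on the opposite strand without exon overlap, and Mcph1 was read at 13.6 to 36.2 CPM. Whether the counting used strand is not stated in the sources used here.

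Per kilobase of exon, Angptl4 was the most abundant member in young CD mice. At 8 weeks of CD the mean levels were 542 CPM per kb for Angptl4, 126 for Vegfa, 84.0 for Vegfb, 69.1 for Epas1 and 45.2 for Hif1a. They were 19.4 CPM per kb for Egln1, 6.15 for Angpt1, 1.83 for Egln3, 0.122 for Angpt2 and 0.109 for Vegfc. After 34 weeks of HFD, Angptl4 still led at 219 CPM per kb, Vegfb (51.8) stood above Vegfa (42.9), and Angpt2 (4.15) stood above Angpt1 (2.34). The plot of each mouse's level shows these genes across the study.

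**Figure D1:**
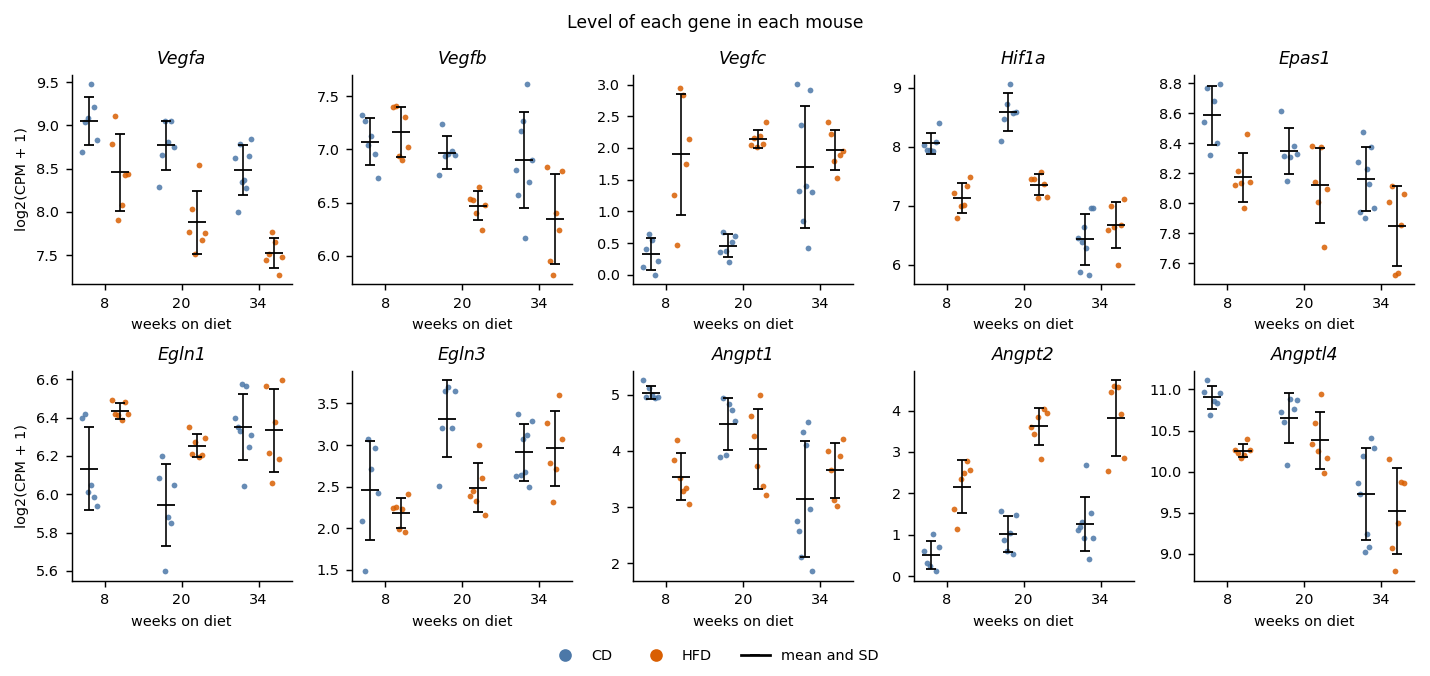
Expression of the 10 genes in each of 38 mice, as log2(CPM + 1) on the vertical axis with a scale of its own in each panel, by diet and weeks on diet. Points are mice and black bars are the group mean and SD. Angpt2 was higher on HFD at each time, Vegfa was lower, and Hif1a fell in CD mice between 20 and 34 weeks.

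The fraction carried the adipocyte marker Adipoq at a mean of 3482 to 5861 CPM in every group, but it also carried RNA of other cells, and that RNA moved with diet. In bulk RNA, fewer cells of a type and less RNA per cell cannot be told apart. The summed level of the 10 macrophage markers measured ran from 429.9 to 1689.7 CPM with CD and from 1090.45 to 3077 with HFD at 8 weeks, from 1027 to 3259 and 4424 to 9004 at 20 weeks, and from 1175 to 12649 and 5135 to 15449 at 34 weeks. Of these markers 6, 7 and 9 were called higher on HFD at 8, 20 and 34 weeks. The 12 blood endothelial markers summed to 37.0 to 366 CPM in CD and 119.6 to 557 in HFD mice at 8 weeks, 64.7 to 250.01 and 240.1 to 626 at 20 weeks, and 69.8 to 222 and 152 to 658 at 34 weeks, with 12, 7 and 7 called higher. Of the 10 adipocyte markers, 2, 8 and 7 were called lower on HFD and 2, 1 and 0 higher, with Lep among the higher ones at 8 and 20 weeks. Their mean log2 level differed by -0.23, -0.60 and -0.64. Markers of progenitors and fibroblasts differed by 1.24, 2.20 and 0.95 in mean log2 level (6, 9 and 5 of 9 called higher), and those of mural cells by 1.04, 1.13 and 0.70 (5, 5 and 4 of 8). The part that these cells played in the results below was not tested, and the members' values with the macrophage or endothelial marker level as a covariate are given where they alter a diet call.

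Of the 10 members 9 passed the filter on low values (mean log2(CPM + 1) above 2.0) and were tested among 10343 genes with limma. Vegfc did not pass and was tested alone. Angpt2 passed only through the HFD groups, where it was high, so its place in the counts below depends on them. At 8 weeks 7 of the 9 differed between diets at a Benjamini-Hochberg adjusted p under 0.05, where 44.9% of all genes tested did. At 20 weeks 6 of 9 differed, against 57.0% of all genes, and at 34 weeks 4 of 9 differed, against 43.2%. Counted by direction, 2, 2 and 1 members were higher on HFD (background 29.8%, 38.3% and 27.5%) and 5, 4 and 3 were lower (background 15.1%, 18.7% and 15.7%). The median log2 change of the 9 was -0.41, -0.44 and -0.02, while that of all genes tested was 0.11, 0.14 and 0.07. With TMM factors the median of all genes became 0.01, -0.07 and -0.01, and the split of all called genes moved from 3083 higher and 1565 lower to 2339 and 2212 at 8 weeks, from 3957 and 1937 to 2718 and 3356 at 20 weeks, and from 2840 and 1628 to 2320 and 2149 at 34 weeks. Every mouse of one diet lay outside the range of the other in 4 of 9 members at 8 weeks (background 22.8%), 3 at 20 weeks (37.2%) and 1 at 34 weeks (2.46%).

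**Figure D2:**
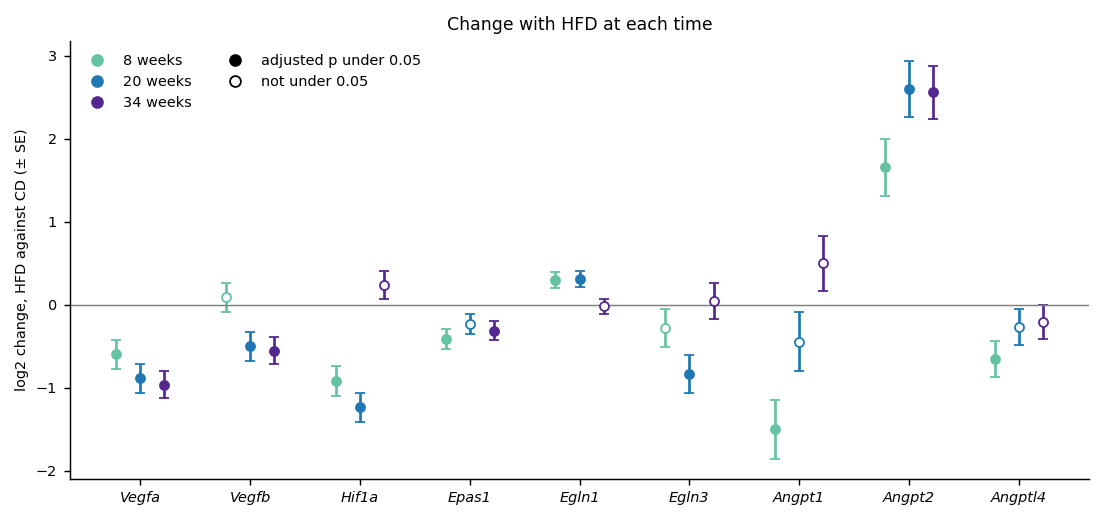
Log2 change of HFD against CD (vertical axis, on the log2(CPM + 1) scale, with SE as bars) for the 9 members tested at 8, 20 and 34 weeks. Filled points have an adjusted p under 0.05. Angpt2 lies above and Vegfa below 0 at all 3 times, and Hif1a lies below at 8 and 20 weeks only.

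Hif1a, the oxygen-regulated subunit of HIF-1, was lower on HFD at 8 and 20 weeks. At 8 weeks it was read at 243 to 336 CPM in CD mice (median 254) and 110.1 to 177 in HFD mice (median 137). At 20 weeks the levels were 272 to 534 in CD mice (median 384) and 139 to 188 in HFD mice (median 169). No HFD mouse reached the lowest CD mouse at either time. The log2 change was -0.92 ± 0.18 (SE, adjusted p = 0.000153) at 8 weeks and -1.24 ± 0.18 (adjusted p = 9.55e-07) at 20 weeks. At 34 weeks the diets overlapped, with 55.8 to 124 CPM (median 84.9) in CD and 62.8 to 138 (median 99.7) in HFD mice, a log2 change of 0.24 ± 0.17 (adjusted p = 0.243). Relative to the adipocyte markers the log2 change was -0.71 at 8, -0.55 at 20 and, past the threshold, 0.82 at 34 weeks (adjusted p = 0.00108).

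Epas1, which encodes the HIF-2α subunit, had smaller log2 changes than Hif1a at 8 and 20 weeks. At 8 weeks it was read at 319 to 443 CPM (median 391) in CD and 249 to 351 (median 281) in HFD mice, with 5 of 6 HFD mice below every CD mouse. The log2 change of -0.41 ± 0.12 passed the test (adjusted p = 0.00678), but not relative to the adipocyte markers (-0.20, adjusted p = 0.415). At 20 weeks CD mice held 282 to 391 CPM (median 318) and HFD mice 208 to 332 (median 277), a log2 change of -0.23 ± 0.12 (adjusted p = 0.108). This difference passed the test with TMM factors (-0.44, adjusted p = 0.00153) and, in the other direction, relative to the adipocyte markers (0.46, adjusted p = 0.023). At 34 weeks levels of 238 to 355 CPM (median 289) in CD and 183 to 277 (median 243) in HFD mice gave -0.31 ± 0.11 (adjusted p = 0.0263). That call was lost without CD mouse 3 (adjusted p = 0.0615) or without HFD mouse 3 or 4 (0.0993 and 0.0878) and with the macrophage (0.212) or endothelial covariate (0.0576), and the direction turned to 0.27 relative to the adipocyte markers.

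The mean balance of the 2 alpha subunits differed between diets and between times, each time being a separate set of mice. The ranges of the diets overlapped at each time. The log2 ratio of Epas1 to Hif1a was 0.53 ± 0.21 (SD, n = 6) in CD and 1.04 ± 0.26 in HFD mice at 8 weeks. At 20 weeks it was -0.24 ± 0.44 in CD and 0.77 ± 0.23 in HFD mice. At 34 weeks the order of the diets was the other way, with 1.74 ± 0.46 (n = 8) in CD and 1.18 ± 0.26 in HFD mice. These ratios restate the levels above and were not tested on their own.

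Egln1, the main prolyl hydroxylase acting on HIF-1α, was modestly higher on HFD at the earlier times. HFD mice had 82.8 to 89.0 CPM (median 84.5) at 8 weeks, where CD mice ranged from 60.3 to 84.6 (median 64.3). At 20 weeks HFD mice had 72.3 to 80.6 CPM (median 74.6) and CD mice 47.5 to 72.4 (median 61.5). In both cases the lowest HFD mouse lay inside the CD range, with 2 of 6 HFD mice above every CD mouse at 8 and 5 of 6 at 20 weeks. The log2 changes were 0.30 ± 0.10 (adjusted p = 0.0145) and 0.31 ± 0.10 (adjusted p = 0.00845). Both calls were lost with TMM factors (0.20, adjusted p = 0.156, and 0.10, adjusted p = 0.469), and the 8-week call also with the endothelial covariate (0.31, adjusted p = 0.0565), with the same sign in each case. At 34 weeks, 64.9 to 94.4 CPM (median 80.1) in CD and 65.6 to 95.6 (median 77.7) in HFD mice gave -0.02 ± 0.09 (adjusted p = 0.881).

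Egln3, the hydroxylase that hypoxia itself induces, was low in this fraction and was lower on HFD than on CD at 20 weeks. There it was read at 4.69 to 12.0 CPM (median 9.89) in CD and 3.45 to 7.02 (median 4.34) in HFD mice, with 4 of 6 HFD mice below every CD mouse. The log2 change was -0.83 ± 0.23 (adjusted p = 0.00253), and it was -0.70 with the macrophage covariate (adjusted p = 0.0593) and -0.15 relative to the adipocyte markers (adjusted p = 0.589). At 8 weeks the range was 1.79 to 7.38 CPM (median 4.96) in CD and 2.88 to 4.33 (median 3.71) in HFD mice (log2 change -0.27 ± 0.23, adjusted p = 0.334). At 34 weeks it was 4.63 to 9.38 (median 6.39) in CD and 3.97 to 11.2 (median 6.66) in HFD mice (0.05 ± 0.21, adjusted p = 0.869). Counting error matters for this gene, since the 8-week CD mice gave 22 to 79 reads each.

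Among the other genes of the HIF machinery, Arnt was lower on HFD at the same 2 times as Hif1a. Arnt, the partner of both alpha subunits, averaged 85.8 CPM on HFD and 157 on CD at 8 weeks (log2 change -0.87 ± 0.12, adjusted p = 3.33e-06). At 20 weeks the means were 91.6 and 162 CPM (-0.82 ± 0.12, adjusted p = 1.39e-06), and at 34 weeks 62.1 and 64.0 CPM (-0.03 ± 0.11, adjusted p = 0.838). Vhl, which encodes the recognition subunit that binds hydroxylated HIF alpha, was higher on HFD at 8 (0.52 ± 0.15, adjusted p = 0.00736) and 20 weeks (0.50 ± 0.15, adjusted p = 0.00586). Rbx1, a subunit of the same ubiquitin ligase, was also higher at 8 (0.42, adjusted p = 0.00374) and 20 weeks (0.44, adjusted p = 0.00142). Hif1an, the asparagine hydroxylase that restrains HIF activity, did not pass the test at any time (adjusted p = 0.547, 0.329 and 0.494), and Hif3a was below the filter at group means of 0.595 to 1.71 CPM. Of the 13 genes of this list that were tested, members included, 4 were higher and 4 lower on HFD at 8 weeks, 3 and 3 at 20 weeks, and 1 lower at 34 weeks. The list's median log2 change was -0.16, -0.07 and -0.02, against 0.11, 0.14 and 0.07 for all genes tested. The shares of all genes tested were 29.8%, 38.3% and 27.5% higher and 15.1%, 18.7% and 15.7% lower.

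The genes that hypoxia commonly induces were called in both directions on HFD, in shares near those of all genes at 8 and 20 weeks. Of 29 tested, without the members, 11 were higher and 5 lower at 8 weeks, 12 and 6 at 20 weeks, and 12 and 4 at 34 weeks, with median log2 changes of 0.26, 0.22 and 0.21. Of all genes tested 29.8%, 38.3% and 27.5% were higher and 15.1%, 18.7% and 15.7% lower, with medians of 0.11, 0.14 and 0.07. Pfkfb4, an activator of glycolysis, was higher at 20 weeks (1.51, adjusted p = 0.000201), as were Plod2, a collagen lysyl hydroxylase (1.46, adjusted p = 5.97e-05), and Hk1, a hexokinase (1.42, adjusted p = 2.05e-06). Hk2, the insulin-responsive hexokinase, was lower at 20 weeks, with means of 323 CPM on HFD and 1215 on CD (-1.89 ± 0.24, adjusted p = 1.89e-07). Bnip3, a mitophagy receptor, was lower at 20 weeks (-0.91, adjusted p = 2.28e-05), and so was Pfkfb3, another activator of glycolysis (-0.90, adjusted p = 0.00162). At 8 weeks Hk2 was also lower (-1.95, adjusted p = 6.91e-07).

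Vegfa, the main growth factor for blood vessels, was lower on HFD at all 3 times. At 8 weeks CD mice had 411 to 712 CPM (median 534) and HFD mice 239 to 551 (median 344). At 20 weeks the levels were 312 to 531 (median 438) in CD and 182 to 371 (median 216) in HFD mice. At 34 weeks they were 255 to 458 (median 360.3) in CD and 154 to 218 (median 179.8) in HFD mice. Of the 6 HFD mice, 4 lay below every CD mouse at 8 weeks, 5 at 20 weeks and all 6 at 34 weeks, and Vegfa was the only member tested without overlap at 34 weeks. The log2 change was -0.60 ± 0.18 (adjusted p = 0.00703), -0.89 ± 0.18 (adjusted p = 7.98e-05) and -0.96 ± 0.17 (adjusted p = 7e-05). Relative to the adipocyte markers, whose mean log2 level was itself lower on HFD, it was -0.38 (adjusted p = 0.125), -0.20 (adjusted p = 0.328) and -0.38 (adjusted p = 0.0545). With the endothelial covariate the 8-week call was lost as well (-0.52, adjusted p = 0.0687).

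Vegfb, which binds FLT1 and is abundant in oxidative tissues, was lower on HFD at the later times only. At 8 weeks the diets overlapped at 105 to 159 CPM (median 135) in CD and 118 to 169 (median 143) in HFD mice (log2 change 0.09 ± 0.17, adjusted p = 0.696). At 20 weeks every HFD mouse (74.8 to 99.1 CPM, median 89.4) lay below every CD mouse (107 to 150.1, median 123), with a log2 change of -0.50 ± 0.17 (adjusted p = 0.0139). At 34 weeks the range was 70.9 to 195 CPM (median 115) in CD and 55.5 to 113 (median 79.4) in HFD mice, with -0.55 ± 0.16 (adjusted p = 0.0064). With the macrophage covariate Vegfb differed by 0.45 at 8 weeks (adjusted p = 0.0027), 0.11 at 20 weeks (adjusted p = 0.568) and -0.08 at 34 weeks (adjusted p = 0.722). The endothelial covariate gave -0.31 (adjusted p = 0.181) at 20 and -0.37 (adjusted p = 0.124) at 34 weeks.

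Vegfc, the lymphatic growth factor, was near the limit of detection in young CD mice and higher on HFD. At 8 weeks CD mice held 0 to 0.568 CPM (0 to 6 reads, median 0.242) and HFD mice 0.379 to 6.72 (5 to 104 reads, median 2.89), with 5 of 6 HFD mice above every CD mouse. The mean log2(CPM + 1) differed by 1.58 (exact permutation test, two-sided, p = 0.00649), and the ratio of mean CPM was 12.7. At 20 weeks CD mice held 0.153 to 0.605 CPM (2 to 8 reads, median 0.367) and HFD mice 3.04 to 4.28 (40 to 62 reads, median 3.33), without overlap. The difference was 1.69 and the exact permutation p of 0.00216 is the smallest that 6 against 6 mice allow. At 34 weeks CD mice ranged from 0.339 to 7.04 CPM (4 to 81 reads, median 1.57) and HFD mice from 1.89 to 4.29 (21 to 46 reads, median 2.78), a difference of 0.27 (exact permutation p = 0.527). Of the 6 lymphatic endothelial markers, whose mean log2 level differed by 0.58, 0.47 and 0.18 between diets, Prox1, Ccl21a and Mmrn1 had group means of at most 0.394 CPM. Flt4 was below the filter, and of the 2 markers tested Pdpn was higher on HFD at 20 weeks (41.4 against 8.23 CPM, 2.20, adjusted p = 0.000166) and Lyve1 did not pass the test (15.0 against 35.6 CPM, -1.13, adjusted p = 0.0652). The part of lymphatic cells in the Vegfc result was not tested.

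Most genes tested for VEGF receptors were higher on HFD. Of the 4 tested genes of the VEGF family and its receptors that were no members, 3 were higher on HFD at 8 weeks, 4 at 20 weeks and 3 at 34 weeks, with median log2 changes of 1.17, 1.08 and 1.00. Among all genes tested 29.8%, 38.3% and 27.5% were higher, with medians of 0.11, 0.14 and 0.07. Kdr, the main signalling receptor, had means of 33.7 against 16.9 CPM at 8 weeks (1.20, adjusted p = 0.0126), 34.5 against 16.0 at 20 weeks (1.08, adjusted p = 0.0175) and 39.0 against 15.8 at 34 weeks (1.13, adjusted p = 0.0125). Flt1 differed by 1.15 (adjusted p = 0.0349), 1.07 (adjusted p = 0.0389) and 0.87 (adjusted p = 0.0873). Nrp2, a coreceptor that binds VEGF-C, was higher by 1.45, 2.44 and 1.98 on the log2 scale (adjusted p = 0.00876, 2.25e-05 and 0.000442). Flt4 was below the filter at 2.60 to 3.55 CPM on HFD and 1.02 to 1.43 on CD. The blood endothelial markers, a list that does not hold Kdr or Flt1, differed by 1.37, 1.12 and 1.07 in mean log2 level at the same times.

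Angpt2, the antagonist of TEK signalling, had the largest change of the 9 members tested and was higher on HFD at each time. At 8 weeks CD mice had 0.0860 to 1.02 CPM (1 to 11 reads, median 0.387) and HFD mice 1.21 to 5.90 (16 to 80 reads, median 4.33). At 20 weeks CD mice had 0.439 to 1.96 CPM (6 to 28 reads, median 0.951) and HFD mice 6.10 to 15.6 (86 to 224 reads, median 12.2). At 34 weeks CD mice had 0.339 to 5.39 CPM (4 to 63 reads, median 1.23) and HFD mice 4.85 to 23.3 (52 to 281 reads, median 17.4). The diets did not overlap at 8 or 20 weeks, and at 34 weeks 5 of 6 HFD mice lay above every CD mouse, the overlap coming from CD mouse 5. The log2 change was 1.66 ± 0.34 (3.15-fold, adjusted p = 0.00028), 2.60 ± 0.34 (6.08-fold, adjusted p = 2.44e-07) and 2.56 ± 0.32 (5.89-fold, adjusted p = 1.5e-06). These folds are on the log2(CPM + 1) scale and understate a gene this low: edgeR on the recovered reads gave log2 changes of 2.94, 3.22 and 3.13.

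The diet change of Angpt2 was smaller in fits that held the macrophage markers. CD mouse 5 at 34 weeks, which had the highest Angpt2 of the CD mice, also had their highest mean macrophage marker level (9.51 on the log2 scale, the other CD mice of that time 6.19 to 8.52). The next of these, CD mouse 2 at 8.52, had 1.29 CPM of Angpt2, while HFD mouse 6 of the same time, at a lower marker level of 8.11, had 6.19 CPM. Among the HFD mice of that time, mice 2, 3 and 4, at marker levels of 9.24 to 9.63, had 20.8 to 23.3 CPM. Mice 1 and 5, at 8.60 and 8.95, had 4.85 and 14.1 CPM. With the macrophage covariate the HFD change of Angpt2 was 1.10 (adjusted p = 0.00389), 1.68 (adjusted p = 0.000376) and 1.84 (adjusted p = 0.00022). With the endothelial covariate it was 0.83 (adjusted p = 0.0474), 1.92 (adjusted p = 1.06e-05) and 1.91 (adjusted p = 4.35e-05). Angpt2 stayed past the threshold at all 3 times in every setting that held it. The stricter filter (mean above 3) left it out, and no setting held the markers of lipid-associated macrophages. The mean log2 level of those markers differed between diets by 2.495, 4.412 and 2.174 at 8, 20 and 34 weeks. That of the macrophage markers used as the covariate differed by 1.11, 1.86 and 1.45. The part of lipid-associated macrophages in the Angpt2 result was not tested.

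**Figure D3:**
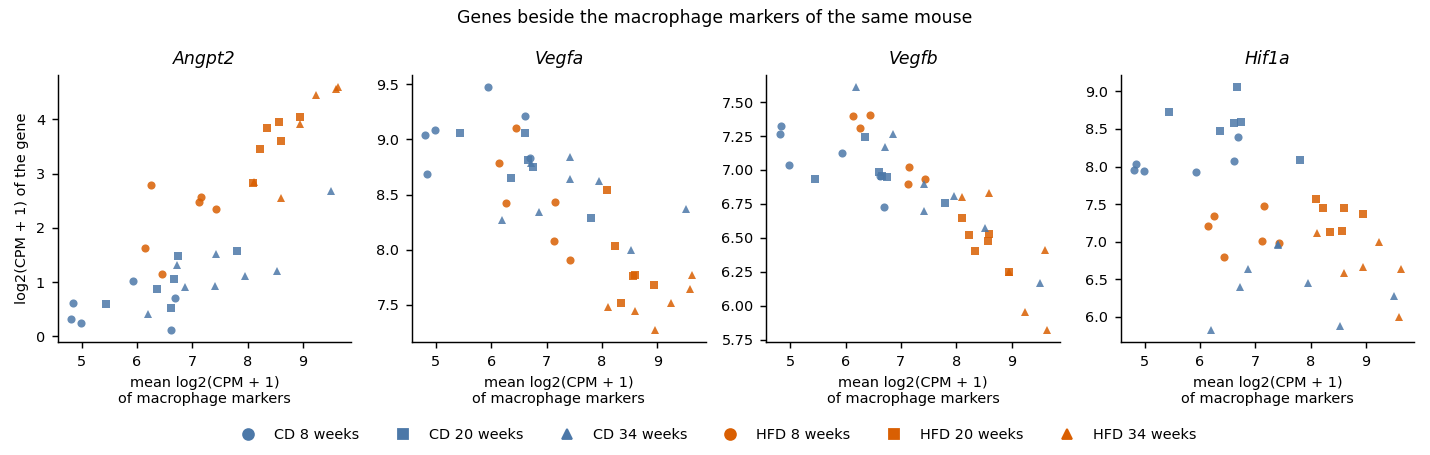
Level of Angpt2, Vegfa, Vegfb and Hif1a in each mouse (vertical axis, log2(CPM + 1)) against the mean log2(CPM + 1) of 10 macrophage markers (horizontal axis), by diet and weeks. The CD mouse at 34 weeks with a marker level of 9.51 lies among the HFD mice in Angpt2, while the one at 8.52 stays with the other CD mice. Among the 34-week HFD mice Angpt2 was highest in those with the highest marker levels.

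Angpt1, the activating ligand of TEK, was lower on HFD at 8 weeks. There CD mice had 29.7 to 37.2 CPM (median 30.5) and HFD mice 7.34 to 17.4 (median 9.80), without overlap, a log2 change of -1.50 ± 0.36 (adjusted p = 0.00121). At 20 weeks the ranges of 13.8 to 29.9 (median 23.8) in CD and 8.29 to 30.8 CPM (median 15.2) in HFD mice overlapped (-0.44 ± 0.36, adjusted p = 0.291). At 34 weeks CD mice spread from 2.63 to 21.9 CPM (median 6.26) and HFD mice from 7.10 to 17.5 (median 12.9), with 0.50 ± 0.33 (adjusted p = 0.223), or 1.08 relative to the adipocyte markers (adjusted p = 0.00394). The mean CD level was 32.0 CPM at 8, 22.2 at 20 and 10.1 at 34 weeks.

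The mean balance of the angiopoietins differed between diets, as a description that was not tested. The log2 ratio of Angpt2 to Angpt1, each as CPM + 1, was -4.54 ± 0.35 (SD) in CD and -1.38 ± 1.04 in HFD mice at 8 weeks, with ranges of -4.87 to -3.98 and -3.06 to -0.48. At 20 weeks it was -3.46 ± 0.71 in CD and -0.41 ± 1.13 in HFD mice, with ranges of -4.20 to -2.32 and -2.16 to 0.73. At 34 weeks it was -1.89 ± 1.20 in CD and 0.17 ± 1.34 in HFD mice, and only in that HFD group was the mean above 0. The ranges at 34 weeks overlapped, at -4.10 to -0.79 in CD and -1.44 to 1.55 in HFD mice. The log2 ratio of Vegfa to Vegfb averaged 1.98 on CD against 1.30 on HFD at 8 weeks, 1.80 against 1.41 at 20 weeks and 1.58 against 1.18 at 34 weeks. The ranges of the diets overlapped in this ratio at each time, and it was not tested either.

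**Figure D4:**
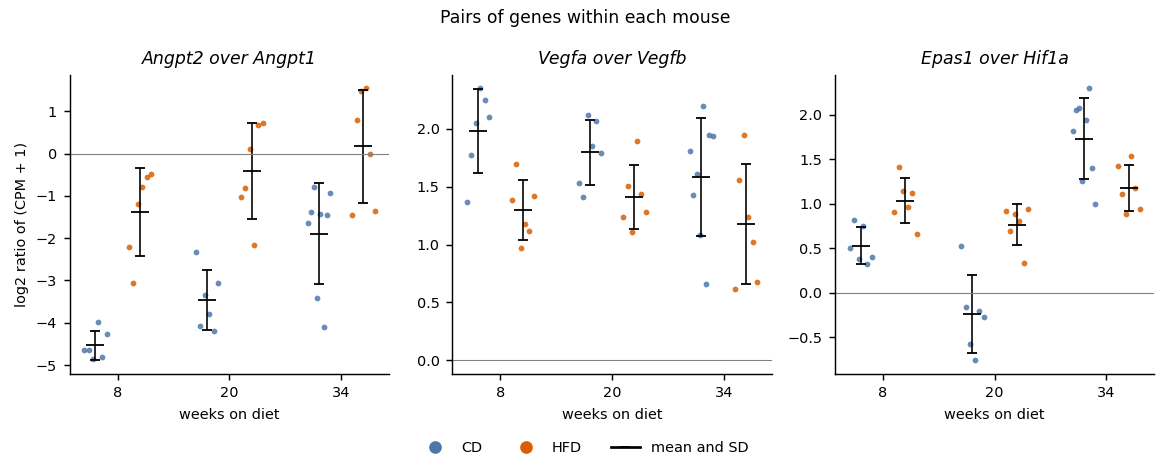
Log2 ratio of Angpt2 to Angpt1, Vegfa to Vegfb and Epas1 to Hif1a within each mouse (vertical axis, from CPM + 1), by diet and weeks. The mean Angpt2 to Angpt1 ratio was higher on HFD at each time, with group means from -4.54 in 8-week CD mice to 0.17 in 34-week HFD mice. In this ratio the diets overlapped among the 34-week mice.

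The receptors of the angiopoietins were higher on HFD throughout. Tek had means of 12.1 against 5.49 CPM at 8 weeks (1.17, adjusted p = 0.00818), 13.6 against 6.32 at 20 weeks (1.01, adjusted p = 0.0149) and 11.2 against 3.70 at 34 weeks (1.25, adjusted p = 0.00311). Tie1, the related receptor that modulates TEK, differed by 1.36, 1.25 and 1.22 (adjusted p = 0.00951, 0.012 and 0.0131). The blood endothelial markers, a list that holds Ptprb but not Tek or Tie1, differed by 1.37, 1.12 and 1.07 in mean log2 level. The part of endothelial cells in these changes was not tested. Of the 6 tested genes of this list of angiopoietin genes that were no members, Ptprb included, 5 were higher at 8 weeks, 4 at 20 weeks and 2 at 34 weeks, and 1 was lower at 8 weeks. Among all genes tested 29.8%, 38.3% and 27.5% were higher, and 15.1% were lower at 8 weeks. Angptl1, an angiopoietin-like gene, was higher at 20 weeks (1.63, adjusted p = 6.45e-05).

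Angptl4, the lipase inhibitor, was lower on HFD at 8 weeks. CD mice had 1645 to 2206 CPM (median 1920.2) and HFD mice 1144 to 1349.9 (median 1213), without overlap, with a log2 change of -0.65 ± 0.22 (adjusted p = 0.0156). This call was lost with the macrophage covariate (adjusted p = 0.053), the endothelial covariate (adjusted p = 0.0995) and relative to the adipocyte markers (adjusted p = 0.122). At 20 weeks CD mice had 1079.85 to 1880.02 CPM (median 1712) and HFD mice 1013 to 1966 (median 1257), and the log2 change was -0.27 ± 0.22 (adjusted p = 0.287), or -0.49 with TMM factors (adjusted p = 0.0466). At 34 weeks CD mice had 518 to 1364 CPM (median 886) and HFD mice 442 to 1135 (median 796), and it was -0.21 ± 0.20 (adjusted p = 0.421).

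Lpl, the enzyme that ANGPTL4 inhibits, averaged 10502 CPM on HFD and 13894 on CD after 20 weeks (-0.40 ± 0.16, adjusted p = 0.0314), and its changes at 8 (0.18, adjusted p = 0.372) and 34 weeks (-0.27, adjusted p = 0.139) did not pass the test. Gpihbp1, which carries the enzyme to the capillary surface, was higher on HFD at 8 (1.71, adjusted p = 0.00192) and 20 weeks (1.13, adjusted p = 0.0242). The blood endothelial markers differed by 1.37 and 1.12 in mean log2 level at those times, and their part was not tested. Of 8 genes of lipase handling tested besides Angptl4, 3 were higher at 20 weeks, Gpihbp1, Sel1l (0.64) and Lmf2 (0.42), and 4 were lower, Lpl, Apoc1 (-2.17), Sort1 (-0.60) and Lmf1 (-0.45). Of 11 PPAR-responsive genes tested besides Angptl4, 3 were higher and 1 lower at 8 weeks, 6 and 2 at 20 weeks, and 5 and 1 at 34 weeks. Beside both lists, the shares of all genes tested were 29.8%, 38.3% and 27.5% higher and 15.1%, 18.7% and 15.7% lower. Cpt1a, which admits fatty acids to mitochondria, was higher at all 3 times (0.80, 2.11 and 1.11, adjusted p = 0.0165, 1.86e-07 and 0.000891).

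Within CD mice Hif1a, Angpt1 and Angptl4 fell and Egln1 rose between 20 and 34 weeks. From 8 to 20 weeks 1 of 9 members was called, against 3.58% of all genes: Egln3, from a mean of 4.86 to 9.37 CPM (log2 change 0.86 ± 0.23, adjusted p = 0.0255). That call was lost without CD mouse 1 or 2 of the 8-week group or mouse 3, 4 or 6 of the 20-week group (adjusted p = 0.0696 to 0.1), and without 20-week CD mouse 1 Hif1a was called too (0.63, adjusted p = 0.038). From 20 to 34 weeks 4 of 9 were called, against 62.5% of all genes. Hif1a fell from a mean of 391 ± 86.0 (SD) to 88.4 ± 26.2 CPM (-2.16 ± 0.17, adjusted p = 4.67e-12), rank 15 of all genes by p. Angpt1 fell from 22.2 to 10.1 CPM (-1.32 ± 0.33, adjusted p = 0.000947) and Angptl4 from 1635 to 902 CPM (-0.92 ± 0.20, adjusted p = 0.000223). Egln1 rose from 61.1 to 81.2 CPM (0.41 ± 0.09, adjusted p = 0.000351). Arnt fell over the same interval (-1.33, adjusted p = 4.21e-11). The macrophage markers differed too, at a mean log2 level of 6.60 at 20 and 7.57 at 34 weeks.

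Between 8 and 34 weeks of CD, 7 of 9 members were called, against 64.7% of all genes. Hif1a (-1.63, adjusted p = 3.03e-09), Angpt1 (-1.89, adjusted p = 1.32e-05), Angptl4 (-1.17, adjusted p = 9.99e-06), Vegfa (-0.57, adjusted p = 0.00326) and Epas1 (-0.42, adjusted p = 0.00165) were lower at 34 weeks. Angpt2 (0.76, adjusted p = 0.0362) and Egln1 (0.22, adjusted p = 0.0396) were higher. The call of Angpt2 was lost without mouse 2, 3 or 5 of the 8-week or mouse 5 or 7 of the 34-week group (0.56 without the last group's mouse 5, adjusted p = 0.102), and with the macrophage covariate its log2 change turned to -0.20. Egln1 lost its call without mouse 3, 4, 5 or 6 of the 8-week or mouse 1, 2, 4 or 6 of the 34-week group (adjusted p = 0.0503 to 0.108). Vegfc, in a fit without the filter, was higher at 34 than at 20 weeks of CD (1.24, adjusted p = 0.00227).

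Within HFD mice Angpt2 rose between 8 and 20 weeks and Hif1a fell between 20 and 34 weeks. From 8 to 20 weeks 3 of 9 members were called, against 36.5% of all genes: Vegfa (-0.58, adjusted p = 0.0118) and Vegfb (-0.69, adjusted p = 0.00262) fell and Angpt2 rose (1.46, adjusted p = 0.00145). Every 20-week HFD mouse had more Angpt2 than any 8-week HFD mouse, and with the macrophage covariate the change was 0.61 (adjusted p = 0.325). From 20 to 34 weeks 2 of 9 were called, against 30.2%: Hif1a (-0.68, adjusted p = 0.00479) and Angptl4 (-0.86, adjusted p = 0.00387) fell. The change of Hif1a from 8 to 20 weeks (0.22, adjusted p = 0.348) and that of Angpt2 from 20 to 34 weeks (0.20, adjusted p = 0.683) did not pass the test. From 8 to 34 weeks 7 of 9 were called, against 52.5%: Angpt2 (1.66, adjusted p = 0.000153) and Egln3 (0.78, adjusted p = 0.00504) were higher, and Vegfa (-0.93), Vegfb (-0.82), Hif1a (-0.47), Epas1 (-0.32) and Angptl4 (-0.73) were lower (adjusted p = 6.71e-05, 0.000222, 0.027, 0.0256 and 0.00525). Over this interval Hif1a lost its call without mouse 5 or 6 of the 8-week or mouse 4 of the 34-week HFD group (adjusted p = 0.0586 to 0.114), and Epas1 without mouse 5 of the 8-week or mouse 3 or 4 of the 34-week group (0.0781 to 0.0856). With the macrophage covariate 1 of the 7 calls was left, and the change of Angpt2 was 0.53 (adjusted p = 0.318).

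The diet change itself was compared between times. Between 8 and 20 weeks 0 of 9 members differed in their diet change in limma (2 at an unadjusted p under 0.05), against 4.49% of all genes. In edgeR and DESeq2 0 members differed as well. Between 20 and 34 weeks 1 of 9 did, against 10.5%: the change of Hif1a moved up by 1.48 ± 0.24 (adjusted p = 0.000351). Between 8 and 34 weeks 3 of 9 did, against 28.8%. These were Hif1a (1.16 ± 0.24, adjusted p = 0.000707), Angpt1 (2.00 ± 0.49, adjusted p = 0.00266) and Vegfb (-0.64 ± 0.24, adjusted p = 0.0388). For Hif1a and Angpt1 the mean of HFD mice stayed within a narrower band (104 to 163 and 11.1 to 17.1 CPM) than that of CD mice (88.4 to 391 and 10.1 to 32.0 CPM). The diet change of Arnt also moved up between 20 and 34 weeks (0.79, adjusted p = 0.00357). The Vegfb difference lost its call on leaving out any 1 of 12 mice. Without CD mouse 5 or HFD mouse 1 of the 34-week groups, 5 of 9 members differed between 34 and 8 weeks, with Angpt2 (1.11 and 1.16) and Egln1 (-0.36 and -0.37) added. Egln3 joined Hif1a between 34 and 20 weeks without 8-week CD mouse 2, 20-week CD mouse 1, 20-week HFD mouse 4 or 34-week HFD mouse 3 (0.88 to 1.04).

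Scaling mattered for the smaller changes. The plot of 5 scalings shows that Angpt2, Hif1a and Angpt1 kept the direction of their called changes, while each called diet change of Vegfa, Vegfb, Epas1, Egln1, Egln3 and Angptl4 lost its call or turned under at least 1 of them.

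**Figure D5:**
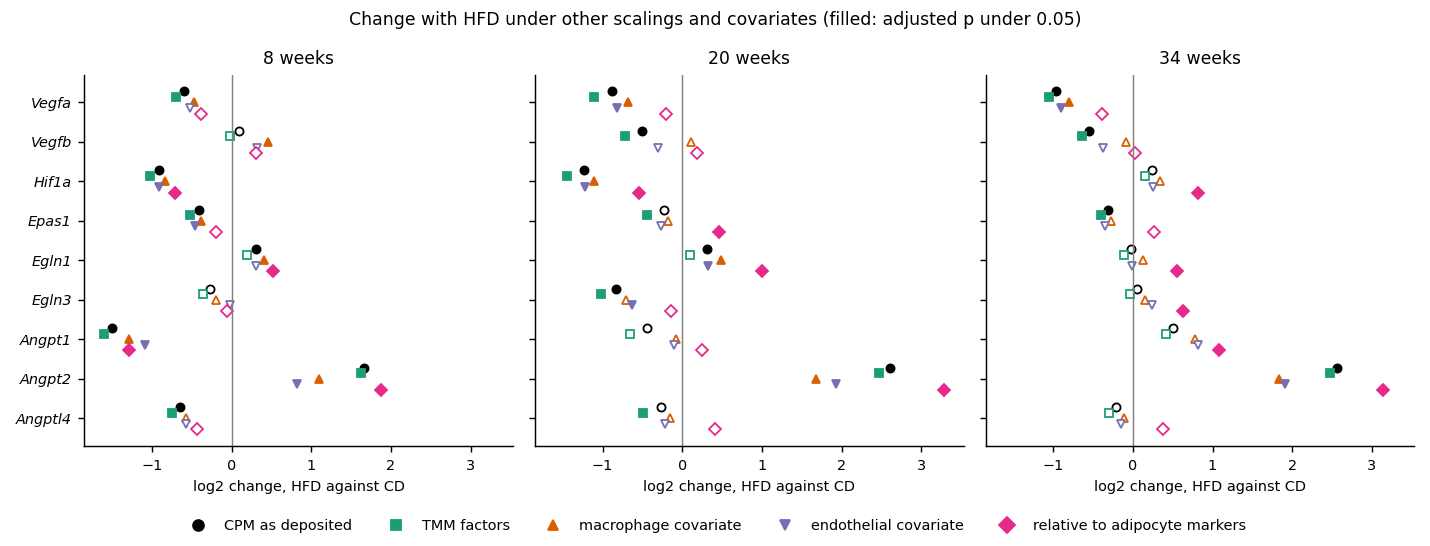
Log2 change of HFD against CD (horizontal axis) of the 9 members tested at 8, 20 and 34 weeks under 5 scalings: CPM as deposited, TMM factors, with the macrophage or endothelial marker level as a covariate, and relative to the adipocyte markers. Angpt2 lies right of 0 under all 5 at each time, and Vegfb at 20 weeks runs from -0.72 with TMM factors to 0.19 relative to adipocyte markers.

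Each member was also set beside the genes whose levels followed it most closely from mouse to mouse within groups, as Pearson's r of deviations from the group means over 38 mice sharing 1 normalization. Angpt2 deviated most like Pcna (r = 0.90), a replication clamp, Nes (0.88), an intermediate filament, and Frmd6 (0.88). Vegfb followed Amy1 (0.91), Rab34 (0.90) and Trappc6b (0.89), and Egln1 followed Syde1 (0.86) and Zfand3 (0.85). Hif1a followed Ddx3y (0.82), Top1 (0.78) and Tsc22d2 (0.78), and Vegfa followed Cbx7 (0.81), Cish (0.78) and Fbf1 (0.76). Angptl4 followed Ric3 (0.82), Anxa6 (0.82) and Apol6 (0.78). The remaining members had leading values of 0.75 (Epas1 with Rbpms), 0.74 (Angpt1 with Rwdd3) and 0.71 (Egln3 with Clstn3). Among the members themselves, Vegfb and Angpt2 deviated in opposite directions (r = -0.73), Vegfb and Egln1 together (0.72), and Epas1 and Angptl4 together (0.51).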

How the data were processed

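RNA of the adipocyte fraction of 38 mice was sequenced from a poly(A) library. The submitters' processing notes name STAR 2.5.2b, featureCounts (Subread 1.5.1), mm10 (GRCm38), edgeR and limma. The deposited values are CPM made by the authors with edgeR from exon reads of 3 technical replicates merged per mouse (114 labelled samples). The methods name TMM, but every column adds up to 1000000, and TMM factors are not seen in the values. Dividing by the CPM of a single read gave whole reads for 100% of values (tolerance 0.1 reads). Replicates of a group differed beyond counting noise (smallest chi-square per degree of freedom 10.6 over 103 pairs), and 0 value columns were left unused. Each mouse is 1 replicate. The labels give no batch.

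Levels were taken as log2(CPM + 1). Genes with a mean above 2.0 (10343) were fitted with limma 3.58.1 (R 4.3.3) as 1 model of 6 groups with 32 residual degrees of freedom, and p-values were adjusted over all of them by Benjamini-Hochberg. Calls used an adjusted p under 0.05. Vegfc was compared by a two-sided exact permutation test (scipy 1.17.1). Alternatives were pseudocounts of 0.5 and 2, other filters, TMM (edgeR 4.0.16) and median-of-ratios factors, edgeR and DESeq2 1.42.0 on recovered reads, array weights, separate fits, a replicate block, marker covariates, each mouse left out and, chosen after seeing the data, scaling to the median adipocyte marker. The fits were tried on simulated data in which few genes changed, evenly in both directions and in a single group. Many genes differed between diets in the real data, so the simulation does not vouch for the fits there. The members and gene lists were chosen with earlier results of these data known. All members are named. Of each list, the 3 genes with the largest called change in each direction at 20 weeks are eligible, plus named receptors, the lipase and HIF partners, and 201 of 207 list entries were matched. For each member tested, the 3 genes with the highest r are the most alike. A gene that these rules would name in each of 2 places is not reported here. Positions are from GENCODE vM21 on GRCm38, and promoters from RefSeq.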

Additional observations from a re-analysis of the deposited data

Results flagged for a closer look

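Among 60 sets of mice (10 genes in 6 groups), 2 held a mouse set apart from its group, where chance gives about 1 in 20. Hif1a in 8-week CD mouse 6 was 336 CPM, the next mouse being at 269, a gap of 0.694 of the group's range on the log2(CPM + 1) scale. Angptl4 in 20-week CD mouse 3 was 1079.85 CPM, the next being at 1556, a gap of 0.658 on the same scale. The diet change differed between times for 3 members. For Hif1a it differed by 1.48 between 34 and 20 weeks (limma, adjusted p = 0.000351) and by 1.16 between 34 and 8 weeks (adjusted p = 0.000707). For Angpt1 it differed by 2.00 between 34 and 8 weeks (adjusted p = 0.00266), and for Vegfb by -0.64 (adjusted p = 0.0388).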

How the results depend on the processing

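The 111 results on single members were recomputed in other settings: of 1503 values 1315 kept sign and side of the threshold, 61 lost the call, 64 gained one, 17 turned sign with a call in at least 1 of the settings, and 46 turned sign with no call in either. Without 1 mouse, 4046 of 4142 values kept both, 39 lost the call, 20 gained one, 0 turned with a call and 37 turned sign with no call in either. Relative to the adipocyte markers these turned with a call: on HFD against CD, Vegfb (0.19) and Epas1 (0.46) at 20 weeks and Vegfb (0.0232), Epas1 (0.27) and Egln1 (0.56) at 34 weeks; between 34 and 8 weeks of CD, Epas1 (0.000871); between 20 and 8 weeks of HFD, Vegfa (0.0502), Epas1 (0.57) and Egln1 (0.45); and between 34 and 8 weeks of HFD, Hif1a (0.32), Epas1 (0.47), Egln1 (0.69) and Angptl4 (0.0577). With the macrophage covariate Vegfb turned at 20 weeks (0.11), between 34 and 20 weeks (0.25) and between 34 and 8 weeks of CD (0.46), and Angpt2 between 34 and 8 weeks of CD (-0.20). The cause was not tested.

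Members called on HFD against CD went from 7 to 4 at 8 weeks with the endothelial covariate or relative to adipocyte markers, and from 4 to 2 at 34 weeks when fitted on the groups alone or with either covariate. Between 20 and 8 weeks of CD, 1 became 0 with the stricter filter, which left Egln3 untested, and 2 with DESeq2, array weights or the macrophage covariate. Between 34 and 20 weeks of CD, 4 became 7 with TMM, median-of-ratios, edgeR or DESeq2. Between 20 and 8 weeks of HFD, 3 became 0 (macrophage) and 7 (adipocyte markers). Between 34 and 20 weeks of HFD, 2 became 5 (array weights) and 0 (adipocyte markers). Between 34 and 8 weeks of HFD, 7 became 1 (macrophage). For the difference of 20 and 8 weeks, 0 became 2 (own groups), 5 (array weights) and 1 (endothelial). For that of 34 and 20 weeks, 1 became 2 (TMM, edgeR, DESeq2, macrophage) and 4 (array weights). Without 1 mouse the counts ran from 0 to 2 between 20 and 8 weeks of CD, from 1 to 2 and from 2 to 5 for the differences of 34 and 20 and of 34 and 8 weeks, and stayed within 1.5 times elsewhere.

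All genes called at 8 weeks (4648) became 7032 with array weights, 2548 with the endothelial covariate and 2887 relative to adipocyte markers. At 20 weeks 5894 became 3175 with the macrophage covariate. At 34 weeks 4468 became 2457 on the groups alone, 736 (macrophage), 1870 (endothelial) and 7541 (adipocyte markers). In time and difference comparisons 20 of 126 such counts moved by over 1.5 times, and 21 of 342 without 1 mouse. With a pseudocount of 0.5, 1 of 18 mean log2 ratios moved by more than its SD, Angpt2 to Angpt1 in 8-week CD mice (-5.17). The mouse numbers mark only a number: same-numbered mice had a median r of -0.07 over 90 pairs, other pairs 0.00 over 510. With a replicate block on that number 105 of 108 member values kept their call, Angpt2 between 34 and 8 weeks of CD lost it (0.77, adjusted p = 0.0623), and Hif1a at 34 weeks (0.42, adjusted p = 0.0471) and the Egln1 difference of 34 and 8 weeks (-0.35, adjusted p = 0.0393) gained it. Depth limits Vegfc, Angpt2 and Egln3 in CD mice, where single mice gave 0, 1 and 22 reads.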

Other observations

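Other secreted regulators of vessels were measured beside the members. Of 18 angiogenic and angiostatic factors tested, 9 were higher and 2 lower on HFD at 8 weeks, 12 and 1 at 20 weeks and 5 higher at 34 weeks, with median log2 changes of 0.81, 1.03 and 0.31. Of all genes 29.8%, 38.3% and 27.5% were higher and 15.1%, 18.7% and 15.7% lower. The markers of progenitors and fibroblasts (by 1.24, 2.20 and 0.95) and of mural cells (by 1.04, 1.13 and 0.70 in mean log2 level) were higher on HFD too, and their part in these changes was not tested. Fgf2, a heparin-binding growth factor for endothelium, was lower at 8 (-2.02, adjusted p = 9.3e-07) and 20 weeks (-2.10, adjusted p = 1.06e-07), with -0.57 at 34 weeks (adjusted p = 0.0519). Pdgfb, which recruits pericytes, was higher at all 3 times (1.81, 3.42 and 2.66; adjusted p = 0.00261, 4.92e-07 and 4.71e-05). Serpinf1, an angiostatic serpin, had means of 274 against 25.9 CPM at 8 weeks and 224 against 25.4 at 20 weeks (3.30 and 3.29; adjusted p = 8.24e-08 and 2.26e-08). At 34 weeks its means were 193 in HFD and 171 in CD mice (0.28, adjusted p = 0.507). Lep, the gene of leptin, differed by 2.18 (adjusted p = 0.00118), 2.90 (adjusted p = 1.78e-05) and 0.56 (adjusted p = 0.351).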
